A study of Homo sapiens with 24 samples.

Results

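AGR2, AGR3 and CLGN, 3 of the 18417 genes measured on 24 arrays, encode proteins of the endoplasmic reticulum, where secreted and membrane proteins fold. They were selected by symbol with earlier results of the same arrays known: AGR2 and CLGN were chosen from their response to CG-1521 against vehicle in SUM149PT, and AGR2 also from its difference between the lines in vehicle. Which values, if any, chose AGR3 is not given in the sources used here, so its tests may not be independent of its choice. Of the probe sets that name a single gene, the brightest on average was to represent each, and each had just 1 such probe set (8138381 for AGR2, gene ID 10551; 8138392 for AGR3, gene ID 155465; 8102877 for CLGN, gene ID 1047). Values are log2 expression, on which 1 unit is a 2-fold difference, and levels of different genes are not set against each other.

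RNA came from SUM149PT and SUM190PT, human inflammatory breast cancer lines that the labels give as estrogen receptor negative and p53 mutant. Each line received, for 48 h, 10 nM 17β-estradiol with CG-1521 (called the combination below), CG-1521 alone, 10 nM 17β-estradiol alone, or the ethanol and DMSO vehicle, in 3 independent experiments each. CG-1521, a histone deacetylase inhibitor, was used at 7.5 µM in SUM149PT, which was kept in serum, and at 5 µM in SUM190PT, which was treated without serum. Line, dose and medium therefore cannot be told apart in any comparison of the lines, and each line is 1 culture model without the other cells of a tumour.

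AGR2 belongs to the protein disulfide isomerase family, whose members form and rearrange disulfide bonds in newly made secretory proteins. In mouse intestine it is needed for mucin production, and it is abundant in many human adenocarcinomas, including hormone receptor positive breast cancers. AGR3, its close relative, lies next to it on chromosome 7. CLGN encodes calmegin, a calcium-binding lectin chaperone related to calnexin that holds newly made glycoproteins until they fold. In mouse it is made in the testis and is required for sperm to fertilise.

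The 24 arrays gave 1 value for each gene. Pearson correlations between arrays of a group ran from 0.9946 to 0.996 across genes in SUM149PT and from 0.9807 to 0.9957 in SUM190PT. In that line the third array of vehicle and that of estradiol stood apart: they correlated at 0.9807 to 0.9844 and at 0.9837 to 0.9848 with the other arrays of their groups, which correlated with each other at 0.991 and 0.9957. Several results that rest on them, chiefly those of CLGN, are given with and without both. Epithelial markers averaged 10.55 to 10.7 per array in SUM149PT and 11.02 to 11.31 in SUM190PT. The mean over the markers of fibroblasts, of leukocytes or of endothelium ranged over 4.03 to 5.26 in SUM149PT and 4.14 to 5.01 in SUM190PT, as separate levels of their own. Single markers of these lists stood well above their list mean, such as CD68 at 10.66 with the combination and 9.74 with estradiol in SUM149PT, and FAP at 5.7 and 8.19 on the same arrays.

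AGR2 was high wherever SUM149PT had received CG-1521 and high in SUM190PT whatever was added. In SUM149PT it stood at 8.11, 8.04 and 8.38 with the combination, at 8.10, 8.28 and 8.54 with CG-1521, at 4.44, 4.70 and 4.33 with estradiol and at 4.56, 4.43 and 4.31 with vehicle. All 6 arrays with CG-1521 lay above all 6 without it, by more than 3 log2 units. In SUM190PT it stood at 11.66, 11.71 and 11.53 with the combination, at 11.91, 11.47 and 11.55 with CG-1521, at 11.92, 11.96 and 11.53 with estradiol and at 11.71, 11.38 and 11.31 with vehicle. The 4 SUM190PT groups overlapped, and in that line AGR2 exceeded between 98.4% and 99.0% of all probe sets of its array. In SUM149PT that share was 33.6% on the dimmest array and 87.4% on the brightest.

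AGR3 stayed near the floor of the arrays in SUM149PT and was detected more strongly in SUM190PT, where the estradiol arrays were highest. In SUM149PT its 12 values ran from 2.77 to 3.2, above 7.2% to 14.6% of the probe sets of an array, and the 4 groups overlapped. At so low a signal a difference in SUM149PT is hard to resolve. In SUM190PT it stood at 5.40, 5.73 and 5.69 with the combination, at 5.47, 4.49 and 5.67 with CG-1521, at 7.16, 7.12 and 7.20 with estradiol and at 6.52, 5.37 and 5.51 with vehicle. The 3 estradiol arrays lay above the other 9, of which the first vehicle array came closest.

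CLGN followed AGR2 in SUM149PT and differed from it in SUM190PT. In SUM149PT it stood at 8.47, 8.61 and 8.82 with the combination, at 8.35, 8.52 and 8.89 with CG-1521, at 4.81, 4.78 and 4.97 with estradiol and at 5.08, 4.90 and 4.80 with vehicle. The 6 arrays with CG-1521 again lay above the 6 without it. In SUM190PT it stood at 9.11, 8.82 and 8.45 with the combination, at 9.14, 8.80 and 8.88 with CG-1521, at 8.13, 8.29 and 9.99 with estradiol and at 7.84, 7.45 and 9.38 with vehicle. The high value of the estradiol and of the vehicle group was in each case the third array, one of the pair that stood apart. The remaining estradiol arrays averaged 8.21 and the remaining vehicle arrays 7.64, and those 4 lay below all 6 SUM190PT arrays with CG-1521.

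**Figure D1:**
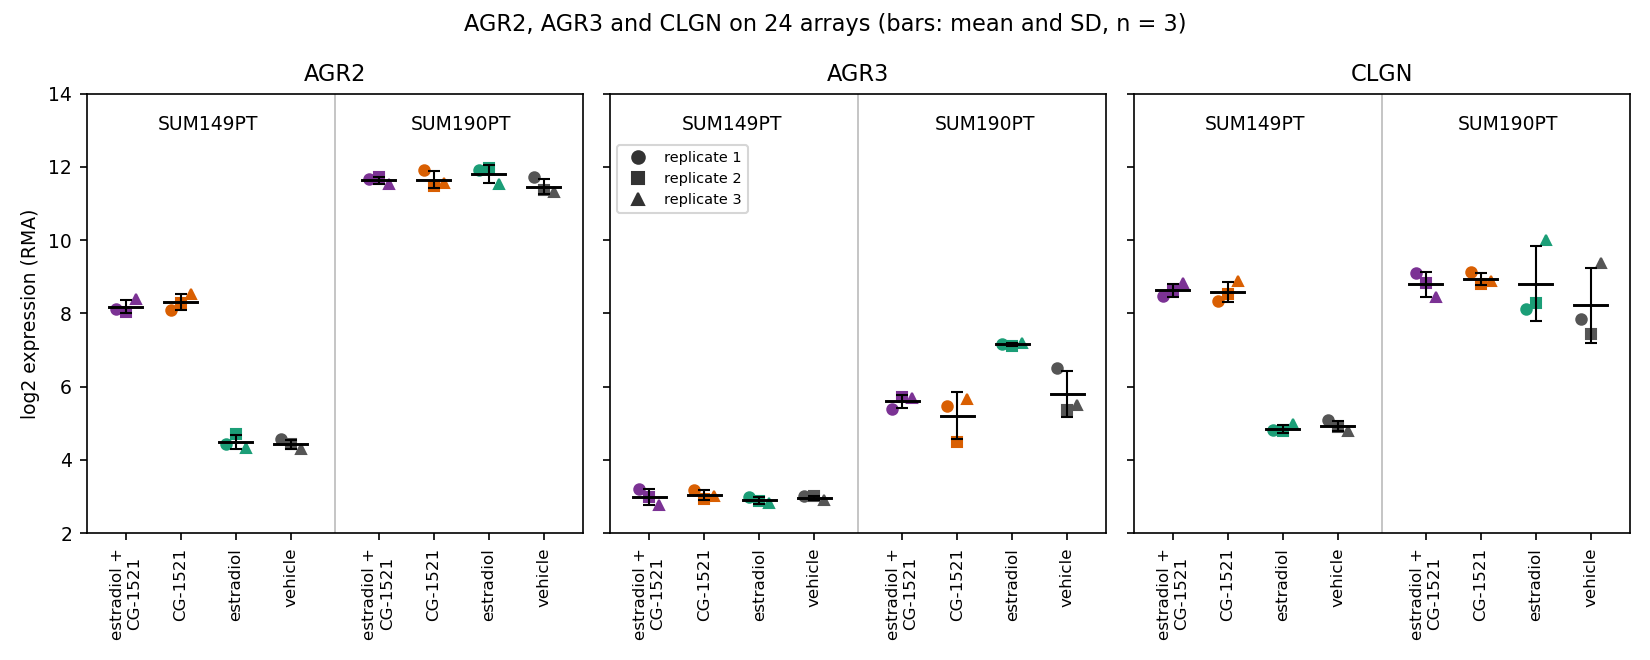
Log2 expression of AGR2, AGR3 and CLGN on each array, with SUM149PT left and SUM190PT right in each panel; symbols give the replicate number and black bars the mean and SD of 3 arrays. In SUM149PT the 6 arrays with CG-1521 lie above the 6 without it for AGR2 and CLGN, while AGR3 stays between 2.77 and 3.2; in SUM190PT the estradiol arrays are highest for AGR3, and the third estradiol and vehicle arrays are highest for CLGN.

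Ordered by group mean, AGR2 fell into 3 tiers. SUM149PT without CG-1521 was lowest (4.49 ± 0.192 with estradiol, 4.43 ± 0.125 with vehicle; SD, n = 3 here and for all group means), SUM149PT with CG-1521 lay between (8.18 ± 0.176 with the combination, 8.31 ± 0.223 with CG-1521 alone), and the SUM190PT groups were highest, between 11.46 ± 0.213 with vehicle and 11.8 ± 0.238 with estradiol. Within a tier neighbouring groups overlapped, and the steps between tiers were 3.69 and 3.16. AGR3 had its 4 SUM149PT groups at the bottom (2.9 to 3.05), then SUM190PT with CG-1521 (5.21 ± 0.635), the combination (5.6 ± 0.182) and vehicle (5.8 ± 0.631), which overlapped, and SUM190PT with estradiol (7.16 ± 0.04) at the top. CLGN had the SUM149PT groups without CG-1521 at the bottom (4.85 ± 0.104 with estradiol, 4.93 ± 0.143 with vehicle). Its other 6 groups, with means of 8.22 to 8.94, all overlapped with their neighbours in the order, both SUM149PT groups with CG-1521 among them.

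The sequence just upstream of each start site is shown because AGR2 and CLGN rose together in SUM149PT while AGR3, the neighbour and relative of AGR2, gave no call there. The 250 bases before the RefSeq start (GRCh38.p14, minus strand) are chr7:16805000-16805249 for AGR2, chr7:16881984-16882233 for AGR3 and chr4:140427649-140427898 for CLGN, and all 3 genes matched a RefSeq promoter. Capitals mark, on either strand, the TATA box TATAAA with its variant, which overlaps it and is written as ATAAAT. They also mark the GC box, GGGCGG. Binding letters of forkhead factors such as FOXA1 were searched as TGTTTNC. The core that estrogen receptor response elements repeat was searched as GGTCA.
AGR2: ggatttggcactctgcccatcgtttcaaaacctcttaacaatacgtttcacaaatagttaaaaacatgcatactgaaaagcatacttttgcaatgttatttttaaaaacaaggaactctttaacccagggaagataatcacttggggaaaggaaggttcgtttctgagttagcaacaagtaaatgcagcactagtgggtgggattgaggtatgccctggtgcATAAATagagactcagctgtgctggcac
AGR3: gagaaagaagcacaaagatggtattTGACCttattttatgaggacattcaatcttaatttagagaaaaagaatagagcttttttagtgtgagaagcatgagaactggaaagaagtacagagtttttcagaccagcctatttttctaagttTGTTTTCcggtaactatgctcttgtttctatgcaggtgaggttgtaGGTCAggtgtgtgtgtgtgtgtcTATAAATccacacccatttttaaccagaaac
CLGN: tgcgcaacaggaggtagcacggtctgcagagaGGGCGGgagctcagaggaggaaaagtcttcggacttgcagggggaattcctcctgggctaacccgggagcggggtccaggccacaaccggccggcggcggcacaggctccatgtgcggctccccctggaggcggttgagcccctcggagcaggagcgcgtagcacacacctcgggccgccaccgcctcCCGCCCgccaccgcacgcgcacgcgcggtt
The promoter of CLGN was 70.8% G and C with 26 CpG pairs, more than 80.4% of the 35116 promoters of the table, whose median is 11. That of AGR2 was 40.4% G and C with 3 CpG pairs, and that of AGR3 36.4% with 1. The TATA variant began 28 bases before the start in AGR2 and 30 bases before it in AGR3, where it overlapped the TATA box itself at 31 bases. CLGN held neither. Of all promoters 11.7% held the variant and 10.7% the box. The GC box was found in CLGN alone, 218 and 30 bases before the start, and 42.6% of all promoters hold it. The forkhead letters occurred once, in AGR3, 100 bases before the start (15.5% of all promoters), and the estrogen letters at 225 and 54 bases, also in AGR3 alone (32.6%). The promoters of AGR2 and CLGN therefore had none of the marked letters in common. TGACGTGG, letters bound by XBP1 (0.612% of all promoters), was in none of the 3 windows. The other letters searched were absent from all 3 too: CCAAT (32%), CCACG (33.5%), TGACGT (7.1%), CACGTG (6.34%), TGANTCA (6.57%) and TGACNNNGC (10.9%).

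Whether CG-1521 changes the genes in the presence of estradiol was tested on arrays that CG-1521 against vehicle, the selecting comparison, had not used. The genes were chosen with the combination against vehicle known too, and it uses the same combination arrays. The test is therefore not free of the choice. AGR2 rose 12.9-fold in SUM149PT with the combination against estradiol (log2 difference 3.69, SE 0.127, 95% interval 3.42 to 3.96, adjusted p = 1.76e-11), and CLGN rose 13.7-fold (3.78, SE 0.129, 3.51 to 4.05, adjusted p = 1.64e-11). With only the 2 groups compared in the limma fit both passed as well (adjusted p = 5.87e-09 for AGR2 and 1.87e-09 for CLGN). In that comparison 16.5% of the 18417 genes passed as higher and 20.4% as lower, at an adjusted p under 0.05 in limma, so a call is common. The size was not: by log2 difference CLGN ranked 2 and AGR2 ranked 4 from the highest of all genes. Both sizes start from low values: on the estradiol arrays AGR2 lay above 33.9% to 39.8% of the probe sets and CLGN above 40.8% to 43.7%. The part of background signal in such values was not tested, so the folds are approximate. AGR3 differed by 0.09 (SE 0.105, -0.13 to 0.31, adjusted p = 0.557), an interval that leaves no room for a rise of the size seen in AGR2 on this scale.

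The comparison that chose AGR2 and CLGN gave similar sizes and is a description. With CG-1521 against vehicle in SUM149PT the log2 difference was 3.88 (SE 0.127) for AGR2, 0.07 (SE 0.105) for AGR3 and 3.66 (SE 0.129) for CLGN, where 14.4% of all genes passed as higher and 19.9% as lower. With the combination against vehicle it was 3.75, 0.01 and 3.7.

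In SUM190PT, with the lower dose and no serum, AGR3 was the gene that passed. AGR3 fell 2.94-fold with the combination against estradiol (log2 difference -1.55, SE 0.307, 95% interval -2.22 to -0.89, adjusted p = 0.00378), the groups did not overlap, and 12.5% of all genes passed as higher and 13.2% as lower. The same estradiol arrays serve in estradiol against vehicle below, so the AGR3 differences of these comparisons are not independent. Against vehicle the combination differed by -0.2 in AGR3 (SE 0.307). In the combination against estradiol AGR2 differed by -0.17 (SE 0.156, -0.51 to 0.17, adjusted p = 0.436). CLGN differed by -0.01 (SE 0.491, -1.08 to 1.05, adjusted p = 0.987), and the third arrays decided that value. Without the third vehicle and estradiol arrays CLGN was higher with the combination by 0.58 (SE 0.191, adjusted p = 0.0417). Without the third estradiol array alone the difference was also 0.58 but did not pass (adjusted p = 0.314), so the call needs the third vehicle array, which is in the fit but not in the comparison, to be left out too.

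As a description, CG-1521 against vehicle in SUM190PT gave 0.18 (SE 0.156) for AGR2, -0.59 (SE 0.307) for AGR3 and 0.72 (SE 0.491) for CLGN, where 8.32% of all genes passed as higher and 8.26% as lower. The AGR3 value was -0.23 without the first vehicle array and also -0.23 without the second CG-1521 array. The CLGN value was 1.3 without the third vehicle array. With the combination against vehicle the differences were 0.17, -0.2 and 0.57, of which AGR3 became 0.17 without the first vehicle array and CLGN 1.15 without the third.

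**Figure D2:**
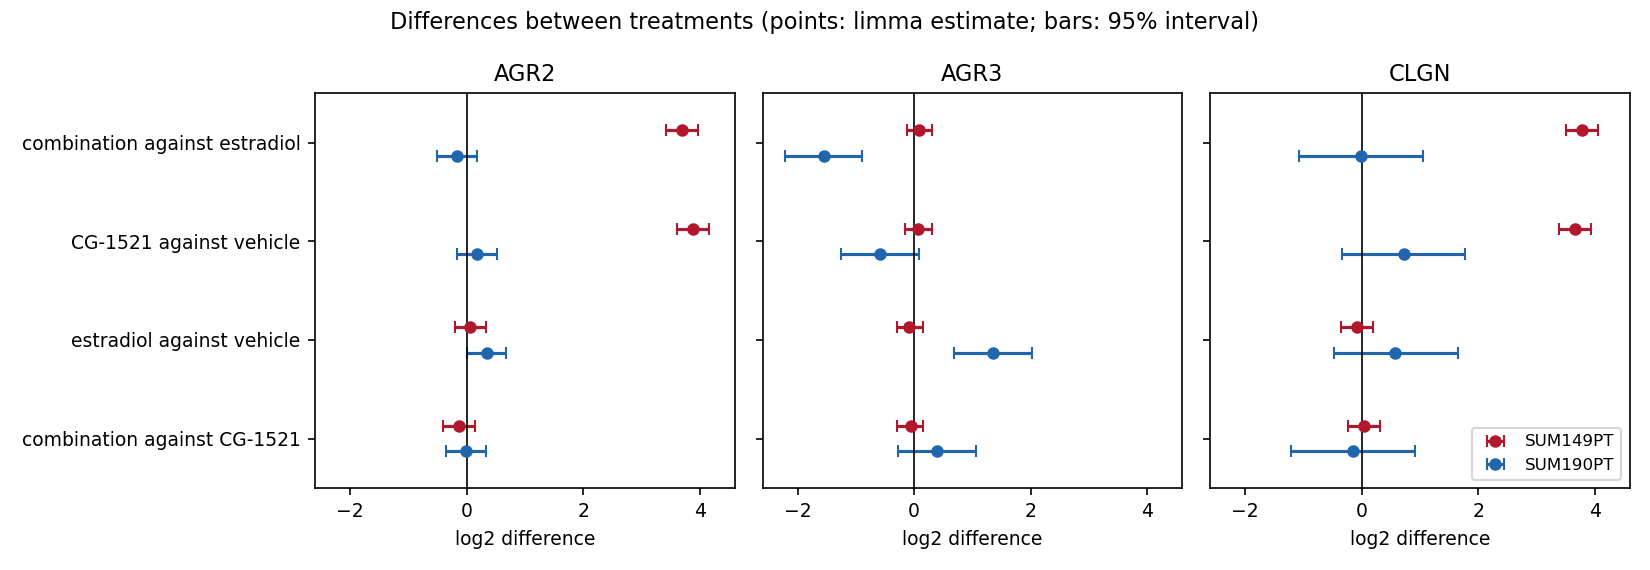
Log2 difference of AGR2, AGR3 and CLGN in 4 comparisons between treatments (horizontal axis), with SUM149PT in red and SUM190PT in blue; points are limma estimates and bars 95% intervals. AGR2 and CLGN lie between 3.66 and 3.88 in both SUM149PT comparisons that add CG-1521, and AGR3 in SUM190PT lies at -1.55 for the combination against estradiol and at 1.36 for estradiol against vehicle.

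Estradiol by itself left the 3 genes without a call in SUM149PT. The log2 difference against vehicle was 0.06 for AGR2, -0.08 for AGR3 and -0.08 for CLGN, each with an adjusted p of 0.998, and the widest 95% interval ran from -0.35 to 0.2. No gene passed in limma (0% of 18417, with 845 at an unadjusted p under 0.05).

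In SUM190PT, AGR3 was 2.56-fold higher with estradiol than with vehicle (log2 difference 1.36, SE 0.307, 95% interval 0.69 to 2.02) and ranked 4 from the highest of all genes, but missed the threshold (adjusted p = 0.0552). Arrays of these groups with the same replicate number had correlated deviations, most so the third arrays (0.729), which stood apart. Only 2 of the 3 estradiol arrays matched best with their own number. With the replicate number as a block AGR3 passed (SE 0.279, adjusted p = 0.0442). Without the first vehicle array, the highest of its group for AGR3, the difference was 1.72 (adjusted p = 0.0113). In both of these fits many more genes passed than in the main fit, as counted in the closing section. Without the third arrays the AGR3 difference was 1.19 (adjusted p = 0.178). These vehicle arrays also served in the comparisons that chose AGR2 and CLGN.

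The spread of values over all probe sets moved along with this difference: its SD was 2.358, 2.352 and 2.324 on the estradiol arrays and 2.331, 2.258 and 2.254 on the vehicle arrays. Quantile normalization, which makes the spread equal, gave 1.37 (adjusted p = 0.0825). The part of that spread in the AGR3 result was not tested. In the same comparison AGR2 differed by 0.34 (SE 0.156, adjusted p = 0.202) and CLGN by 0.58 (SE 0.491, adjusted p = 0.485). Without the third arrays CLGN differed by 0.57 (SE 0.209, adjusted p = 0.21). The background was 0.00543%, that is 1 gene in limma, with 4531 at an unadjusted p under 0.05. That gene, named after its values were seen, was KRCC1 (0.86, SE 0.098, adjusted p = 0.0155).

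Adding estradiol to CG-1521 gave no call for any of the 3 genes in either line. In SUM149PT the combination differed from CG-1521 by -0.13 for AGR2 (95% interval -0.4 to 0.14, adjusted p = 0.908), by -0.06 for AGR3 (-0.29 to 0.16, 0.956) and by 0.04 for CLGN (-0.23 to 0.32, 0.972). In SUM190PT the differences were -0.01 (-0.35 to 0.33), 0.39 (-0.27 to 1.06) and -0.15 (-1.21 to 0.91), each with an adjusted p of 1. In both lines 0% of genes passed in limma, with 1156 at an unadjusted p under 0.05 in SUM149PT and 889 in SUM190PT. The CG-1521 arrays here are those of the selecting comparison.

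The lines differed widely in all 3 genes under estradiol. SUM149PT was lower than SUM190PT for AGR2 (log2 difference -7.31, SE 0.149, adjusted p = 1.46e-20), which is 159-fold. The fold is approximate, since AGR2 lay above only 33.9% to 39.8% of the probe sets on the SUM149PT estradiol arrays. AGR3 differed by -4.26 (SE 0.244, adjusted p = 1.03e-12), a size that is a lower bound at best, since AGR3 lay near the floor in SUM149PT. That limit holds for each AGR3 difference between the lines. CLGN differed by -3.95 (SE 0.386, adjusted p = 8.76e-09), which is 15.5-fold and likewise approximate. Without the third SUM190PT vehicle and estradiol arrays the CLGN difference was -3.36 (SE 0.176, adjusted p = 5.56e-13). Here 31% of all genes passed as higher in SUM149PT and 23.6% as lower, and AGR2 ranked 8 from the lowest. For comparison, the vehicle groups, which chose AGR2, differed by -7.04, -2.83 and -3.29.

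With the combination the gap in AGR2 was -3.46 (SE 0.149, adjusted p = 1.18e-14) and in AGR3 -2.62 (SE 0.244, adjusted p = 5.93e-09). CLGN no longer differed past the threshold: SUM149PT minus SUM190PT was -0.16 (SE 0.386, adjusted p = 0.777), and the 95% interval of -0.96 to 0.64 does not reach the gap seen under estradiol. In this comparison 22.9% of genes passed as higher and 22% as lower. The 2 intervals come from 1 fit over all 24 arrays.

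The change with CG-1521 in the presence of estradiol was itself different between the lines for all 3 genes. The change in SUM149PT minus that in SUM190PT was 3.86 for AGR2 (SE 0.211, adjusted p = 4.36e-11), 1.64 for AGR3 (SE 0.345, adjusted p = 0.00138) and 3.79 for CLGN (SE 0.546, adjusted p = 2.8e-05). Without the third SUM190PT vehicle and estradiol arrays it was 3.2 for CLGN (SE 0.236, adjusted p = 5.79e-09). For AGR3 the difference consisted of a fall in SUM190PT and values near the floor in SUM149PT, where a fall could hardly have shown. The background was 10.6% of genes with a more positive change in SUM149PT and 9.86% with a more negative one.

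In the other comparisons the difference between the lines was tested after the AGR3 values had been seen. The change with estradiol differed by -1.43 for AGR3 (SE 0.345, adjusted p = 0.0427), by -0.28 for AGR2 (adjusted p = 0.457) and by -0.66 for CLGN (adjusted p = 0.502), with 0.918% of genes called more positive in SUM149PT and 0.825% more negative. The AGR3 call was lost when any of 14 of the 24 arrays was left out. Over all 24 such fits the difference ran from -1.8 to -1.22 and the adjusted p from 0.00223 to 0.134. The change when estradiol was added to CG-1521 differed by -0.12, -0.46 and 0.2 for AGR2, AGR3 and CLGN (adjusted p = 1 each; 0% of genes passed in limma, 534 at an unadjusted p under 0.05).

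Other enzymes of disulfide formation moved in both directions in SUM149PT. Of 22 measured members of the protein disulfide isomerase family and its partners, without AGR2 and AGR3, 7 rose and 5 fell with the combination against estradiol, and the median difference was 0.02 against 0.033 over all genes. Of all genes 16.5% passed as higher and 20.4% as lower, so the share that fell was near that of all genes. ERO1B, an oxidase that recharges the isomerases, rose by 2.04 (SE 0.12, adjusted p = 2.89e-09), ERP44, which retains clients in the early secretory pathway, by 0.69 (SE 0.077, adjusted p = 2.87e-06), and DNAJC10, a reductase, by 0.57 (SE 0.102, adjusted p = 0.00031). TXNDC16 had a difference of -1.01 (SE 0.145, adjusted p = 4.13e-05). None of these approached the 3.69 of AGR2.

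In SUM190PT 2 of the 22 rose and 12 fell, with a median of -0.39 against 0.071 over all genes. There 12.5% of all genes passed as higher and 13.2% as lower. ERP27, a non-catalytic member, differed by -2.57 (SE 0.253, adjusted p = 4.98e-05), more than AGR3, and TMX4, a membrane-bound member, by -1.45 (SE 0.156, adjusted p = 8.89e-05). DNAJC10 and TXNDC16 fell as well (-1.12, SE 0.229, adjusted p = 0.0045, and -1.1, SE 0.163, adjusted p = 0.000673), so DNAJC10 passed in opposite directions in the lines.

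Genes of the calnexin and calreticulin cycle, the pathway of CLGN, were listed together with genes of disposal and export. That list held genes that rose in SUM149PT and genes that fell in SUM190PT. In SUM149PT 9 of 18 genes without CLGN rose and 3 fell (median 0.26 against 0.033), where 16.5% and 20.4% of all genes did. Of the chaperones, CANX rose by 0.25 (SE 0.074, adjusted p = 0.0144). CALR (0.18, SE 0.074, adjusted p = 0.0671) and CALR3 (0.23, SE 0.098, adjusted p = 0.0824) did not pass. The 3 that fell were GANAB (-0.26), PRKCSH (-0.29) and MLEC (-0.22). The largest rises were in genes of disposal and export. ERLEC1, a lectin of the disposal pathway, rose by 0.96 (SE 0.09, adjusted p = 4.47e-07), SEL1L, part of the channel that removes misfolded proteins, by 0.92 (SE 0.105, adjusted p = 3.72e-06), LMAN1, a cargo receptor for glycoproteins, by 0.85 (SE 0.086, adjusted p = 1.06e-06), and EDEM2, a mannosidase, by 0.8 (SE 0.1, adjusted p = 9.71e-06). In SUM190PT 0 of 18 rose and 8 fell in limma, against 12.5% and 13.2% of all genes, with 0 higher at an unadjusted p under 0.05 (median -0.36 against 0.071). Among the 8 were EDEM3 (-0.97, SE 0.218, adjusted p = 0.00719), MLEC, or malectin (-0.89, SE 0.106, adjusted p = 0.00017), UGGT2, a folding sensor (-0.89, SE 0.127, adjusted p = 0.00054), and ERLEC1 (-0.83, SE 0.14, adjusted p = 0.00144).

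Genes of the endoplasmic reticulum stress response rose on the same SUM149PT arrays. Of 20, 17 rose and 0 fell in limma, also 0 lower at an unadjusted p under 0.05 (median 0.62 against 0.033). Of all genes 16.5% passed as higher and 20.4% as lower. DDIT3, a transcription factor of prolonged stress, rose by 1.97 (SE 0.111, adjusted p = 2.02e-09), HERPUD1, a disposal factor, by 1.67 (SE 0.11, adjusted p = 9.96e-09), DNAJB9, a co-chaperone, by 1.64 (SE 0.099, adjusted p = 3.83e-09), and CHAC1, which degrades glutathione, by 1.13 (SE 0.083, adjusted p = 3.24e-08). The sensors ATF6 and ERN1 rose by 0.64 (SE 0.081, adjusted p = 1.24e-05) and 0.56 (SE 0.121, adjusted p = 0.00162), and XBP1, the factor that ERN1 activates, by 0.32 (SE 0.085, adjusted p = 0.00749).

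In SUM190PT 1 of the 20 rose and 5 fell (median 0.12 against 0.071), against 12.5% and 13.2% of all genes. The one that rose was HSPA5, the main chaperone of the compartment (0.59, SE 0.159, adjusted p = 0.017), and among those that fell were the sensor EIF2AK3 (-0.88, SE 0.118, adjusted p = 0.00035), XBP1 (-0.86, SE 0.148, adjusted p = 0.00169) and the co-chaperone SDF2L1 (-0.54, SE 0.163, adjusted p = 0.0283). Without the third vehicle and estradiol arrays 5 rose and 5 fell. ERN1 differed by 0.73 (SE 0.315, adjusted p = 0.104) and ATF6 by 0.0 (SE 0.154, adjusted p = 0.994).

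Transcription factors tied to AGR2 in other epithelia included several that fell in SUM190PT. With the combination against estradiol 1 of 10 rose and 5 fell there (median -0.26 against 0.071), where 12.5% and 13.2% of all genes did. The strongest falls were in SPDEF, a goblet cell factor (-1.8, SE 0.216, adjusted p = 0.000173), CREB3L1, a secretory pathway factor (-1.7, SE 0.326, adjusted p = 0.00322), and the luminal factors GATA3 (-1.61, SE 0.182, adjusted p = 0.000121) and FOXA1 (-0.91, SE 0.116, adjusted p = 0.000244). AGR2 itself differed by -0.17 in the same arrays and missed the threshold.

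In SUM149PT 2 of the 10 rose and 1 fell (median 0.1 against 0.033). The share that rose was near the 16.5% of all genes, and the share that fell was below their 20.4%. EHF, an epithelial ETS factor, rose by 1.69 (SE 0.083, adjusted p = 5.02e-10), FOXA2 by 0.31 (SE 0.109, adjusted p = 0.0348), and GATA3 had a difference of -1.11 (SE 0.135, adjusted p = 7.27e-06). FOXA1 and SPDEF, which activate AGR2 in other cells, differed by 0.11 (SE 0.079, adjusted p = 0.334) and -0.05 (SE 0.125, adjusted p = 0.809) on the arrays where AGR2 rose 12.9-fold. ESR1, the estrogen receptor, differed by -0.13 (SE 0.096, adjusted p = 0.319) in SUM149PT and 0.01 (SE 0.136, adjusted p = 0.967) in SUM190PT.

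Mucins, the clients of AGR2 in mouse intestine, rose in 2 of 11 genes in SUM149PT and fell in 0 (0 lower at an unadjusted p under 0.05 in limma), a share near the 16.5% of all genes that passed as higher, with small differences for MUC20 (0.33, SE 0.108, adjusted p = 0.0271) and MUC6 (0.3, SE 0.107, adjusted p = 0.0395). In SUM190PT 2 of 11 fell and 2 rose, near the 13.2% and 12.5% of all genes. Those that fell were MUC1, a membrane mucin of breast epithelium (-1.29, SE 0.268, adjusted p = 0.00499), and MUCL1, a small breast mucin (-1.23, SE 0.121, adjusted p = 4.98e-05), while MUC3A (0.37, SE 0.103, adjusted p = 0.0221) and MUC2 (0.32, SE 0.102, adjusted p = 0.0351) rose. The last 2 were dim: MUC3A averaged 4.73 with the combination and 4.36 with estradiol, and MUC2 5.2 and 4.88. In SUM190PT the SD over all probe sets was 2.288, 2.305 and 2.282 with the combination and 2.358, 2.352 and 2.324 with estradiol. The part of that narrower spread in the SUM190PT differences and list counts was not tested. Without the third arrays 1 mucin rose and 2 fell.

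Genes of sperm and germ cells, where CLGN normally acts, gave no call beside it: 0 of 26 passed in either direction in SUM149PT, with 1 higher and 0 lower at an unadjusted p under 0.05 in limma and a median of 0.05 against 0.033 over all genes. Of all genes 16.5% passed as higher and 20.4% as lower in that comparison. In SUM190PT 3 of 26 rose, no larger a share than the 12.5% of all genes, by small amounts (PRM1 0.44, SE 0.139, adjusted p = 0.0342; ADAM20 0.44, SE 0.138, adjusted p = 0.0351; TNP1 0.33, SE 0.11, adjusted p = 0.0425) and TDRD1 fell (-0.82, SE 0.179, adjusted p = 0.00639). The 3 that rose were dim, with averages of 4.29 to 4.55 under estradiol. The part of the array spread in them was not tested.

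**Figure D3:**
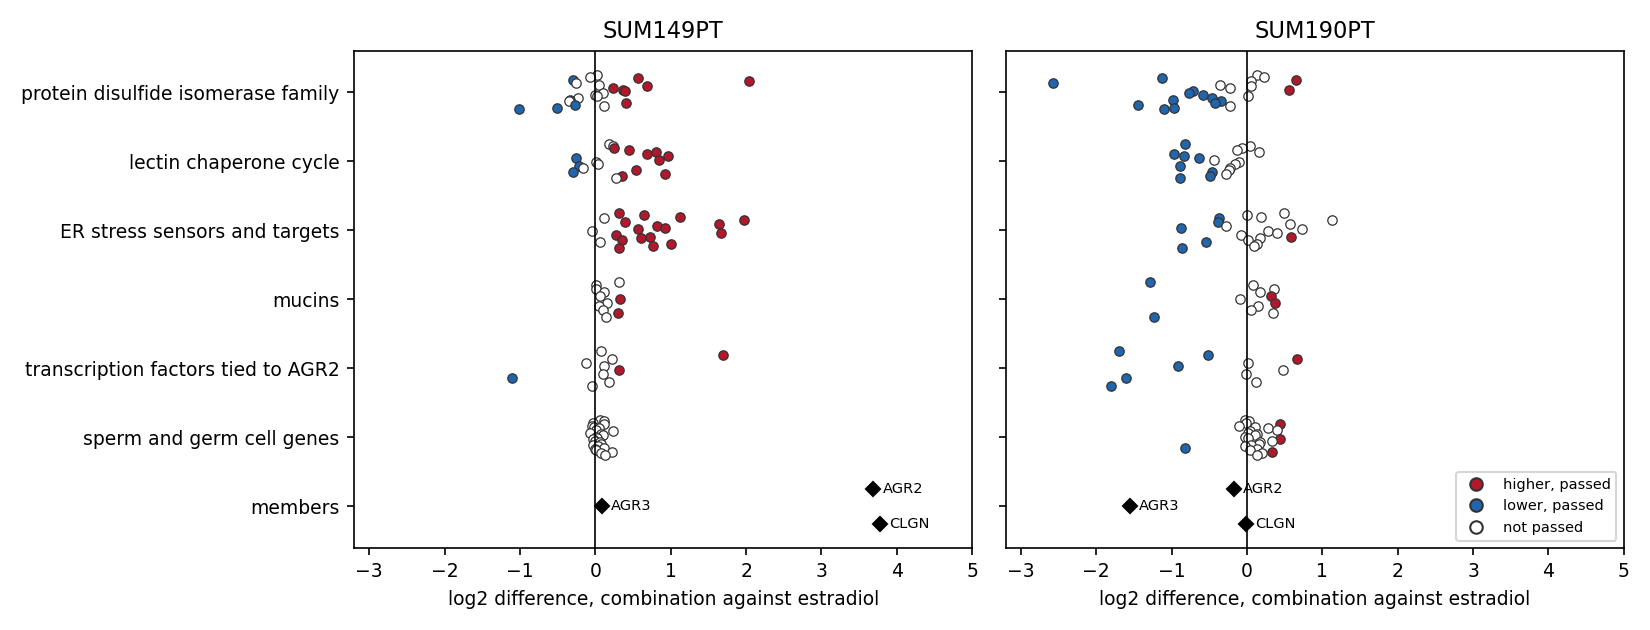
Log2 difference between the combination and estradiol for each gene of 6 lists and for AGR2, AGR3 and CLGN (black diamonds), in SUM149PT and SUM190PT; red circles passed as higher, blue circles passed as lower, open circles did not pass. In SUM149PT 17 of 20 stress genes passed as higher, below the 3.69 of AGR2 and the 3.78 of CLGN; in SUM190PT 12 of 22 disulfide isomerase genes and 8 of 18 lectin cycle genes passed as lower.

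With CG-1521 against vehicle the same lists gave like counts in SUM149PT, with 7 up and 5 down of 22 disulfide isomerase genes, 10 up and 3 down of 18 lectin cycle genes, and 18 up and 0 down of 20 stress genes. In SUM190PT they gave 1 up and 8 down, 0 up and 4 down, and 2 up and 2 down. Of all genes 14.4% passed as higher and 19.9% as lower in SUM149PT, and 8.32% and 8.26% in SUM190PT. The stress gene counts in SUM190PT were thus near the share of all genes. The zeros in these counts were also 0 at an unadjusted p under 0.05 in limma. Of the mucins 0 of 11 passed in SUM149PT, likewise at an unadjusted p, and 1 rose and 2 fell in SUM190PT. Of the transcription factors 1 rose and 1 fell in SUM149PT, and 1 rose and 4 fell in SUM190PT. Of the germ cell genes 1 rose in each line.

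Markers of other cell types were measured on the same arrays. In SUM190PT 3 of 7 leukocyte markers passed as higher with the combination against estradiol (CD68 1.95, CSF1R 0.88, CD14 0.48), where 12.5% of all genes did. The mean of the 7 was 4.82 to 5.01 per array with the combination and 4.4 to 4.42 with estradiol. Of 8 endothelial markers only PECAM1 passed, as lower (-1.26), while the list median was 0.17. Of 8 fibroblast markers only COL1A1 passed, as higher (0.59, list median 0.17). Of all genes 13.2% passed as lower. In SUM149PT 1 of 7 leukocyte markers passed, CD68 as higher (0.92). Of 8 fibroblast markers FAP and DCN passed as lower (-2.49 and -0.52) and 6 did not pass (list median 0.06). Of 8 endothelial markers 1 passed, VWF as higher (0.3). Of all genes 16.5% passed as higher there and 20.4% as lower. The part of these markers in the results above was not tested.

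The genes around AGR2 and AGR3 did not move as a block. In the order of the RefSeq annotation (GRCh38.p14, measured genes), TSPAN13, a tetraspanin gene, lies next to AGR2 on the side away from AGR3. It rose by 1.57 (SE 0.088, adjusted p = 1.95e-09) in SUM149PT with the combination against estradiol and had a difference of -0.73 (SE 0.114, adjusted p = 0.00089) in SUM190PT. Next after it, BZW2 fell in both lines (-1.23, SE 0.102, adjusted p = 1.31e-07, and -0.62, SE 0.193, adjusted p = 0.0329). On the other side of AGR3, the aryl hydrocarbon receptor gene AHR differed by -0.25 (SE 0.082, adjusted p = 0.0236) in SUM149PT and SNX13 by 0.69 (SE 0.077, adjusted p = 3.19e-06). AGR2 thus had a neighbour that rose on one side, while AGR3 on the other side differed by 0.09.

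Around CLGN, MAML3 rose by 0.85 (SE 0.105, adjusted p = 9.07e-06), SCOC by 0.35 (SE 0.087, adjusted p = 0.0047) and ELMOD2 by 0.62 (SE 0.112, adjusted p = 0.000358) in SUM149PT, against 3.78 for CLGN. In SUM190PT SCOC (-1.05, SE 0.126, adjusted p = 0.000173), ELMOD2 (-0.95, SE 0.183, adjusted p = 0.00333) and MGST2 (-0.65, SE 0.176, adjusted p = 0.0179) fell. MGAT4D, next to CLGN, and UCP1 did not pass in either line.

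**Figure D4:**
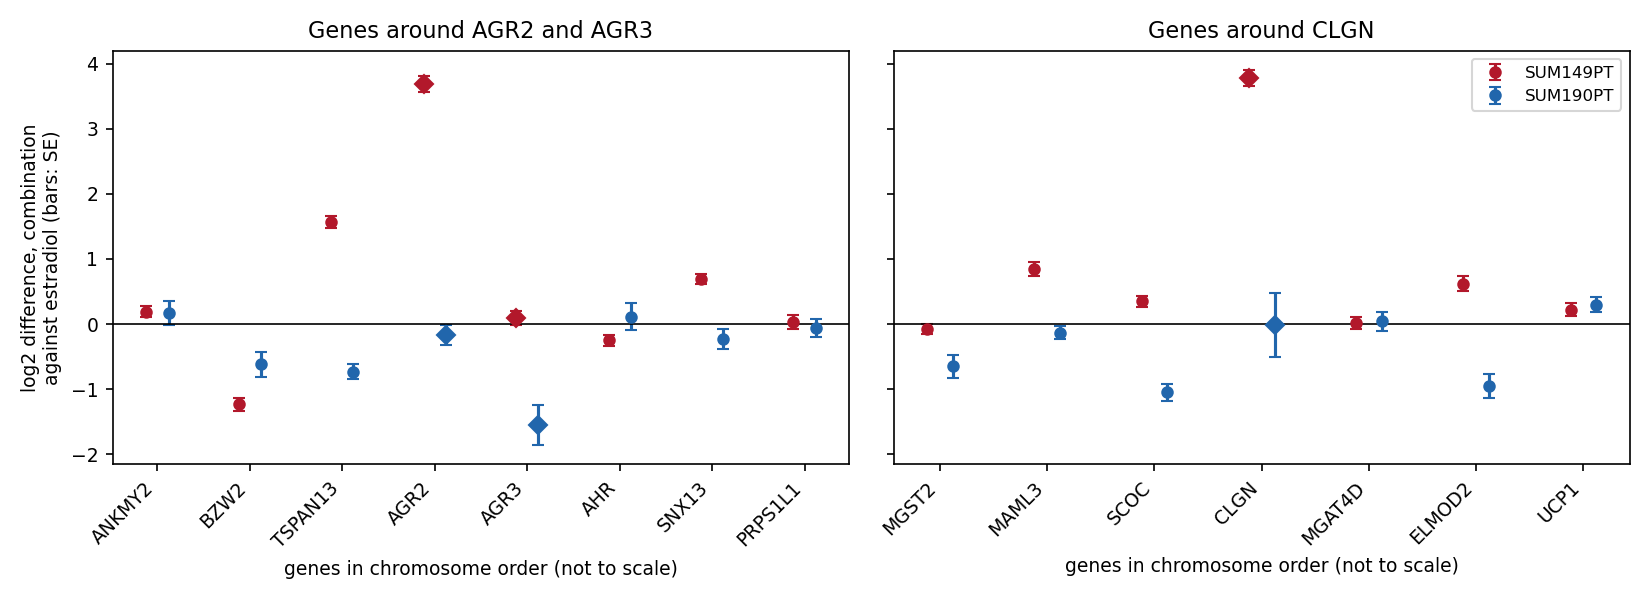
Log2 difference between the combination and estradiol for AGR2, AGR3 and CLGN (diamonds) and the measured genes nearest to them (circles), in chromosome order and not to scale; red is SUM149PT, blue SUM190PT, and bars are the SE. In SUM149PT AGR2 (3.69) and CLGN (3.78) stand above the genes around them, of which TSPAN13 (1.57) is highest.

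The genes whose pattern over the 8 group means was most like each of the 3 were looked up by Pearson correlation among 5727 genes whose means spanned at least 1 log2 unit. These are descriptions over 8 means that share lines and treatments. For AGR2 the leading genes were FOXO4, a forkhead factor (r = 0.998), SLC67A1 (0.997), TSPAN1, a tetraspanin (0.996), AARS1, an alanyl-tRNA synthetase (0.996), and GOLGB1, a Golgi tether (0.995). TSPAN1 averaged 8.38, 8.45, 6.72 and 6.77 in SUM149PT with the combination, CG-1521, estradiol and vehicle, and 9.94 to 10.42 in SUM190PT. That is the 3-tier order of AGR2 over a smaller span.

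For AGR3 they were CAST, the calpain inhibitor (0.997), ZNF254 (0.995), HADHB, of mitochondrial fatty acid oxidation (0.994), F2R, a thrombin receptor (0.993), and ENSA, a phosphatase regulator (0.993). F2R averaged 4.94 to 5.06 in SUM149PT and, in SUM190PT, 6.52 with the combination, 6.57 with CG-1521, 7.83 with estradiol and 7.07 with vehicle. For CLGN they were SPX, which encodes the hormone spexin (0.999), NBAS (0.994), ME1, a malic enzyme (0.994), SGPP2 (0.994) and AKR1C2, an aldo-keto reductase (0.994). SPX averaged 7.71, 7.78, 3.67 and 3.85 in SUM149PT and 8.2, 8.19, 8.0 and 7.31 in SUM190PT, in the same order of treatments.

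Over the 12 SUM149PT arrays, among 1032 genes, AGR2 was most like SQSTM1, an autophagy receptor (0.998), SC5D, of cholesterol synthesis (0.997), LGALS8, a galectin (0.997), RIOK3 (0.997) and AKR1C1 (0.997). CLGN was most like SPX (0.998), BBS9 (0.998), ABHD4 (0.998), CASP4 (0.997) and LURAP1L (0.997). Some of these genes followed another course in SUM190PT: SQSTM1 averaged 12.29 there with the combination and 10.36 with estradiol, while BBS9 averaged 5.31 with the combination and 6.11 with estradiol. AGR3, flat in that line, had no like gene; its highest r, with ARMCX3, was 0.502. Ranked by Spearman correlation, the 5 leading genes shared 0 with those by Pearson for AGR2 and for CLGN in both sets, so the lists name examples only.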

How the data were processed

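RNA was purified on columns, amplified with a kit for small inputs, labelled with biotin and hybridised to Affymetrix Human Gene 1.0 ST arrays, per the labels' protocols. The deposited log2 values were summarised by the authors with RMA, using Affymetrix Expression Console (no version stated), per the submitters' processing notes. Joint or separate normalization of the lines is not given in the sources used here. RMA draws all arrays to a like distribution, so a difference is relative to the other genes. All 24 columns were used and 0 were left out.

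Of 33297 probe sets, 19460 carry 1 gene symbol, 1754 several and 12083 none in the annotation; the brightest single-symbol probe set stood for each of 18417 genes. Tests used limma 3.58.1 under R 4.3.3, two-sided, over the 12 arrays of a line or, between lines, all 24 arrays, with Benjamini-Hochberg adjustment over 18417 genes and a threshold of 0.05. SE and intervals come from these fits. The fit was tested on simulated data: in SUM149PT combination against estradiol 98% of 100 genes changed by 1 log2 unit and 100% of 100 genes changed by 2 were recovered, with 12 false calls over 18417 genes. Figures used Python 3.11.15 and matplotlib 3.10.9.

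The 3 genes and the gene lists were chosen with earlier results of these data known, and the motif letters after the promoters were seen. Named genes are the 3 genes, their 5 most alike by correlation, up to 4 per list by size among those that passed, their neighbours and 6 regulators. A few listed genes are not reported here. Comparisons whose values had selected AGR2 or CLGN were given without a test of the 3 genes. Replicates are independent experiments, per the series design.

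Whether replicate numbers pair arrays was checked by correlating deviations from the group means. All 3 pairs exceeded 0.1 in SUM190PT estradiol against vehicle (0.443, 0.229 and 0.729) and combination against CG-1521 (0.518, 0.434 and 0.502) and not in the other tested comparisons. Alternatives were the replicate block, other sets of arrays in the fit, quantile normalization, median centring, removal of the dimmest 50% of genes, an average over probe sets, all probe sets, an intensity trend, and leaving out arrays. Arrays carry no counts, so their number limits the precision.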

Additional observations from a re-analysis of the deposited data

Results flagged for a closer look

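In 4 results the lines differed in their response, by a test of the difference itself over all 24 arrays. For the combination against estradiol, SUM149PT minus SUM190PT, the difference was 3.86 for AGR2 (adjusted p = 4.36e-11), 1.64 for AGR3 (adjusted p = 0.00138) and 3.79 for CLGN (adjusted p = 2.8e-05, limma). For estradiol against vehicle it was -1.43 for AGR3 (adjusted p = 0.0427), a comparison added after the AGR3 values were seen, whose call was lost in 14 of the 24 fits that left out 1 array. AGR3 lay near the floor of the arrays in SUM149PT (2.99 with the combination, 2.9 with estradiol), where a fall could hardly have shown, so its differences rest on the SUM190PT arrays. Dose and medium differed between the lines along with the line itself and cannot be told apart from it.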

How the results depend on the processing

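Of 856 fits under an alternative, over 33 tested results of the 3 genes, 820 kept their direction and their side of the threshold, 17 lost a call, 3 gained one and 16 changed sign, 1 of these gaining a call as well. AGR2 and CLGN in SUM149PT combination against estradiol kept their call in each, between 3.59 and 3.79 and between 3.69 and 3.86 with 1 array left out. AGR3 in SUM190PT combination against estradiol did too (-1.62 to -1.45). CLGN in SUM190PT combination against estradiol turned to 0.14 with quantile normalization and to 0.58 without the third arrays, and ran from -0.35 to 0.58 with 1 array left out. AGR3 in SUM190PT estradiol against vehicle, 1.36, passed with the replicate block (adjusted p = 0.0442) and with all 24 arrays in one fit (1.36, adjusted p = 0.00327), and ran from 1.14 to 1.72 with 1 array left out; the block changed no other call. Its difference between the lines lost its call with quantile normalization (-1.38, adjusted p = 0.0783), with all probe sets (-1.43, 0.0516) and without the third arrays (-1.27, 0.0951), and ran from -1.8 to -1.22. Other sign changes, all among results that had not passed, came with 1 array left out: AGR3 in SUM149PT combination against estradiol (-0.02 to 0.2), AGR2 and CLGN in SUM149PT estradiol against vehicle (-0.04 to 0.14, -0.14 to 0.0), AGR3 and CLGN in SUM149PT combination against CG-1521 (-0.17 to 0.05, -0.07 to 0.2), CLGN in SUM190PT estradiol against vehicle (-0.01 to 1.16), and AGR2 and CLGN in SUM190PT combination against CG-1521 (-0.1 to 0.12, -0.31 to 0.02). AGR3 lies among the dimmest 50% of genes and has no value once these are removed. The cause of these shifts was not tested. Counts over all genes moved by over 1.5 times in SUM190PT estradiol against vehicle (1 gene, 519 with the block, 2990 with all 24 arrays, 649 over all probe sets, 2261 without vehicle replicate 1, 0 with only the groups compared or without the third arrays), in the difference between the lines there (321, 575 with the block, 2 with quantile normalization or without the third arrays, 2239 without SUM190PT vehicle replicate 1, and 0 to 412 without another array), in SUM190PT CG-1521 against vehicle (3053, 5070 with all 24 arrays, 1878 without vehicle replicate 2, 1567 without CG-1521 replicate 1), in SUM190PT combination against vehicle (2466, 4242 with all 24 arrays, 1611 without vehicle replicate 2, 1252 without combination replicate 1), in SUM190PT combination against estradiol (4732, 2605 to 3063 without estradiol replicate 2 or combination replicates 1 or 3), between the lines under estradiol (10065, 6662 without the dimmest genes) and between the lines in vehicle (8592, 13005 over all probe sets). Where no gene had passed, 1 did in SUM149PT estradiol against vehicle without vehicle replicate 1, and 7 did with all 24 arrays and 1 without estradiol replicate 3 or the third arrays in SUM190PT combination against CG-1521. The difference between the lines in that comparison likewise had 1 without either. Median centring moved the split of calls in SUM190PT CG-1521 against vehicle to 2069 higher and 1048 lower, against 1532 higher of 3053.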
